A study of Mus musculus with 18 samples.

Results

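Transcript levels of CD4 T cells lacking the gene Id3 (KO cells) were compared between 2 sets of libraries that the labels number 5 and 6 (treatment labels ID5.KO and ID6.KO). Each set held 3 KO libraries, so the comparison rests on 6 of the 18 libraries of the series and covers all 12547 genes of the deposited table. Wild-type (WT) cells of sets 5 and 6, 3 libraries each, gave the same contrast in cells that carry Id3, and KO and WT cells of set 3 entered the estimate of the spread. In every group naive mouse CD4 T cells had been activated on anti-CD3/CD28 beads, in medium holding IL12, IL2 and a blocking antibody to IL4, conditions that favour Th1 cells, the helper cells that make interferon gamma. What the set numbers mean is not in the labels, nor is the number of animals, their strain or age, or how Id3 was deleted. In the authors' deposited table the names of the contrasts carry 24 for set 3 and 96 for sets 5 and 6, with no unit given. Set 6 therefore differs from set 5 in whatever parted the sets, and a batch and a condition cannot be told apart. Nothing says that the 3 replicates of a group came from separate animals, so the p-values reflect the spread among these libraries, which may be technical.

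A naive CD4 T cell recirculates through lymph nodes with the help of the chemokine receptor CCR7 and the sphingosine phosphate receptor S1PR1, and the transcription factors KLF2 and FOXO1 keep these genes on. Activated cells lose this programme, build cytokine genes chosen by factors such as T-bet (Th1) and GATA3 (Th2), and enlarge the endoplasmic reticulum (ER), where secreted proteins are folded by chaperones. ID3 pairs with E proteins, a class of transcription factors, and prevents their binding to DNA. Its deletion was visible in all 6 KO libraries. Id3 stood at 2.02, 5.63 and 2.80 in set 5 and at 1.0, 4.97 and 4.46 in set 6, on the deposited log2 scale on which a difference of 1 is a factor of 2. The WT means were 9.10 and 9.18. The KO values of both sets overlapped (difference -0.01, SE 0.89, adjusted p = 0.996). Id2, a relative of Id3, stood at 15.51, 15.43 and 15.65 in set 5 and at 15.70, 15.89 and 15.93 in set 6. Its difference of 0.31 (SE 0.16) did not pass on the deposited values (adjusted p = 0.210) and passed with the replicate number as a block (0.0058). Of the 6 measured Id and E protein genes none was called. Relative to the median of all genes the E protein genes Tcf3 and Tcf12 were lower, and with the block Id1 and Id2 were higher and Tcf12 lower. Without set 5 replicate 2, 1 member was higher.

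The CD4 T cell label was checked against 7 markers. Cd4, called with Cd3g on the deposited values and not after centring, stood at 12.91, 12.77 and 12.65 in set 5 and at 13.35, 13.14 and 13.17 in set 6, and the summed linear level of the 7 markers ran from 88330 to 93100 in set 5 and from 100700 to 102600 in set 6. The 2 CD8 markers summed to 393 to 529 and to 384 to 545. The values had been equalized within each group before deposit, so the depth of a library is unknown and the lowest value of a library, 1.0 to 1.09, is held by 149 to 248 genes of each KO library. In a principal component analysis of the 6 KO libraries the sets separated along the first component, which carried 33.5% of the variance. No KO library lay on the wrong side of it.

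Most genes stood a little higher in set 6. The mean was higher in set 6 for 66.1% of genes, and the median gene differed by 0.11 (by 0.06 in WT cells). By limma, 1501 genes passed an adjusted p of 0.05, 1246 higher in set 6 (9.93% of genes) and 255 lower (2.03%). After each library was centred on its median, 943 were called, 486 higher (3.87%) and 457 lower (3.64%), so that the share of higher genes among those called was 83% on the deposited values and 51.5% after centring (48.7% after quantile normalization). The replicate numbers 1 to 3 behaved as paired between the sets, and with the number as a block 3476 genes were called, 2704 higher (21.6%) and 772 lower (6.15%). The same call in all 3 of these fits was held by 484 higher and 249 lower genes. The count was 955 without set 5 replicate 1, 589 without set 5 replicate 3, 693 without set 6 replicate 1 and 798 without set 6 replicate 2, and 454 of the 1501 calls were lost by no single KO library. Differences were small for the most part: 835 called genes (55.6%) differed by less than 0.5, and 264 by 1 or more, 216 of them higher. In 2896 genes (23.1%) the 3 set 6 values lay above the 3 set 5 values, and in 819 (6.53%) below. Counts below are given in the order of deposited values, centred values and blocked fit. They are to be read beside the shares of all genes, 9.93%, 3.87% and 21.6% higher and 2.03%, 3.64% and 6.15% lower.

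**Figure D1:**
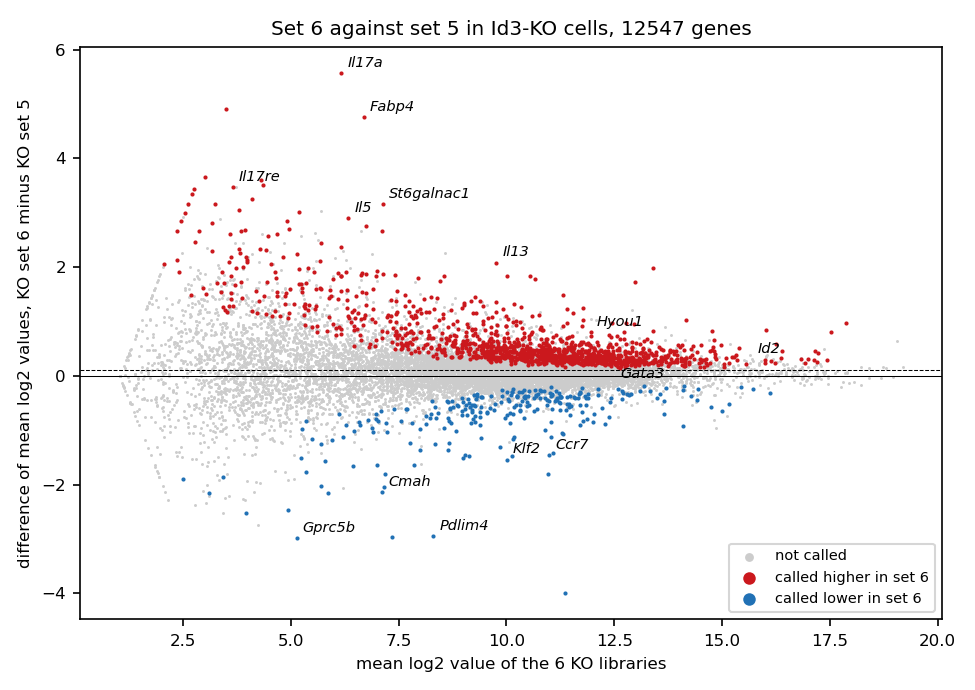
Difference between the means of set 6 and set 5 (log2, vertical axis) against the mean log2 value of the 6 KO libraries (horizontal axis), 1 point a gene, with 1246 genes called higher in red and 255 called lower in blue. The dashed line marks the median difference of 0.11, and Pdlim4 at -2.95 and Il17a at 5.57 lie far from it.

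Genes of naive and memory T cells were lower in set 6. Of 29 measured members of the naive, memory and stem-like list 15 were lower and none higher (16 and none centred, 19 and 2 blocked), and the list median was -0.71 beside 0.11 over all genes. Klf2, the gene of a factor that drives S1pr1, stood at 10.79, 10.76 and 10.77 in set 5 and at 9.57, 9.03 and 9.10 in set 6 (difference -1.54, SE 0.16, adjusted p = 0.000168). Ccr7, the lymph node homing receptor, went from 11.97, 11.43 and 11.75 to 10.39, 10.09 and 10.29 (difference -1.46, SE 0.15, adjusted p = 0.000161). No set 6 value of either gene reached a set 5 value. S1pr1, the receptor for exit from lymph nodes, had set 5 values of 10.14, 9.97 and 9.86 and set 6 values of 9.70, 8.43 and 8.41, so that set 6 replicate 1 lay close to set 5. Its difference of -1.14 (SE 0.33, adjusted p = 0.0349) was no longer called without any 1 library except set 6 replicate 1 (adjusted p up to 0.136). In bulk samples fewer cells of a type and less RNA per cell cannot be told apart.

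Several transcription factor genes of the list were lower too. Tcf7, which encodes TCF1 of naive and memory cells, stood at 11.63, 11.94 and 11.89 in set 5 and at 10.69, 10.71 and 10.91 in set 6 (difference -1.05, SE 0.17, adjusted p = 0.00176). Bach2, a repressor of effector genes, differed by -1.13 (SE 0.18, adjusted p = 0.00145), and Lef1, the partner of TCF1, by -0.71 (SE 0.13, adjusted p = 0.0033). Foxp1 differed by -0.88 (SE 0.19) and Foxo1 by -0.48 (SE 0.09), the latter from values between 11.24 and 11.58 to values between 10.87 and 11.06. Nsg2 differed by -1.63 (SE 0.26) and Igfbp4, an insulin-like growth factor binding protein, by -1.80 (SE 0.46). Igfbp4 stood at 11.50, 12.79 and 11.28 in set 5 and at 9.65, 10.91 and 9.61 in set 6, with replicate 2 highest in both. Its call was lost without set 5 replicate 2, set 6 replicate 1 or set 6 replicate 3 (adjusted p up to 0.0843), and its blocked adjusted p was 2.39e-06. Cd27, a costimulatory receptor, and Il6ra, the IL6 receptor, differed by -1.0 and -0.68 (SE 0.20 and 0.14). Not every member moved: Il7r, the IL7 receptor of resting cells, differed by 0.25 (adjusted p = 0.521), and Myb by 0.92 (adjusted p = 0.0694, 0.00104 with the block). Leaving out 1 KO library gave between 12 and 14 lower members. In WT cells 5 members were lower and 1 higher (15 and 3 with the block), with a median of -0.46.

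**Figure D2:**
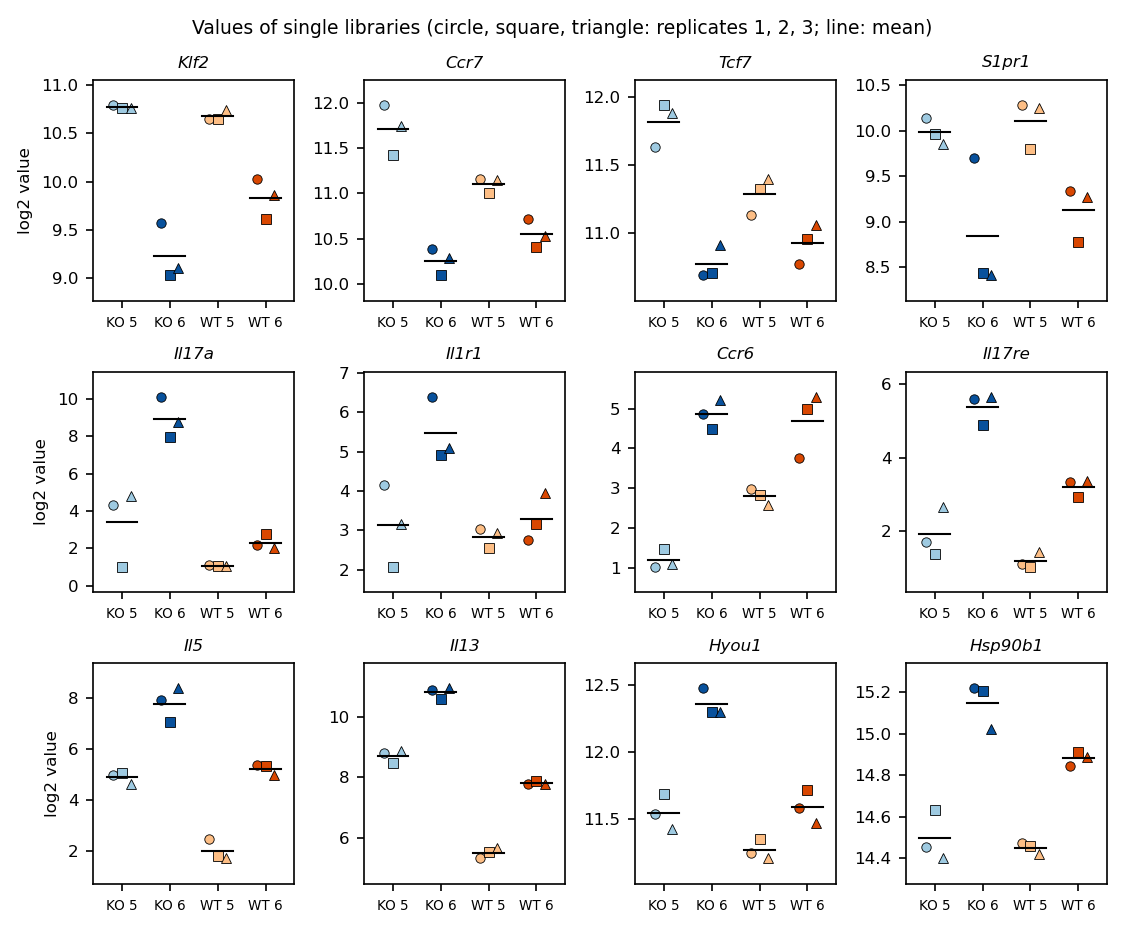
Deposited log2 values (vertical axis, a scale of its own in each panel and not starting at 0) of 12 genes in single libraries of KO and WT cells of sets 5 and 6, with a line at each group mean. Klf2 and Ccr7 stood lower in KO cells of set 6 than of set 5, and Il17a, Il1r1, Ccr6 and Il5 stood higher.

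Genes of Th17 cells, which make IL17, were higher in set 6. Of 18 measured members 7 were higher and 1, Il6ra, lower (7 and 2 centred, 10 and 2 blocked), with a median of 1.10. Il17a stood at 4.34, 1.0 and 4.82 in set 5, where replicate 2 was at the lowest value of its library, and at 10.12, 8.0 and 8.76 in set 6. All set 6 values lay above all set 5 values (difference 5.57, SE 0.86, adjusted p = 0.00144). Ccr6, a chemokine receptor of Th17 cells, stood at 1.02, 1.47 and 1.09 in set 5, with replicates 1 and 3 at the lowest value, and at 4.86, 4.47 and 5.23 in set 6 (adjusted p = 0.000161). Il17re, a subunit of the IL17C receptor, went from 1.72, 1.38 and 2.66 to 5.60, 4.91 and 5.66 (difference 3.47, SE 0.44, adjusted p = 0.00057).

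Among other Th17 members, the IL1 receptor gene Il1r1 differed by 2.34 (SE 0.57), Rora, an orphan nuclear receptor, by 1.28 (SE 0.30), Tmem176a by 1.18 (SE 0.31) and Ahr, the aryl hydrocarbon receptor, by 1.06 (SE 0.25). All 4 calls were lost without set 6 replicate 1, and without that library 3 members were called higher in place of 7. Those on Il1r1, Tmem176a and Ahr were also lost without set 5 replicate 3, that on Il1r1 without set 5 replicate 2 and that on Tmem176a without set 5 replicate 1 (adjusted p up to 0.0808, 0.104 and 0.0768 for Il1r1, Tmem176a and Ahr). Il17f, the neighbour and relative of Il17a, stood at 6.78, 6.94 and 6.85 in set 5 and at 8.69, 6.96 and 8.44 in set 6, where replicate 2 lay within 0.2 of set 5, and it was not called (adjusted p = 0.185). Il22 differed by 2.17 (adjusted p = 0.143), and Il23r by 0.53 (adjusted p = 0.632). The values of Il21 overlapped between the sets. IL17 is also made by γδ and NKT cells. Of 9 listed markers of these cells 4 were measured, Zbtb16, Sox13, Blk and Klrb1c. No γδ T cell receptor gene of the list was among them, and Blk and Klrb1c are also B and NK cell markers here. The 4 had a summed linear level of 31.8 to 73.8 in set 5 and of 94.7 to 124 in set 6. None of the 4 was called (1 without set 5 replicate 1). Zbtb16, the gene of the NKT cell factor PLZF, stood at 5.75, 3.27 and 4.61 in set 5 and at 6.02, 5.87 and 6.19 in set 6 (adjusted p = 0.0925). Their part in the Th17 result was not tested. In WT cells 3 Th17 members were higher and 1 lower (8 and 1 with the block).

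Among type 2 genes the cytokine genes Il5 and Il13 were higher, and 16 of 18 measured members were not called (the same 2 higher after centring, 11 higher and 1 lower blocked). Il5, the eosinophil growth factor, stood at 4.98, 5.05 and 4.63 in set 5 and at 7.91, 7.07 and 8.39 in set 6 (difference 2.90, SE 0.36, adjusted p = 0.000569). Il13 stood at 8.81, 8.47 and 8.86 in set 5 and at 10.88, 10.59 and 10.92 in set 6 (difference 2.08, SE 0.37, adjusted p = 0.00276). Both genes were called in WT cells too, by 3.25 and 2.29. Il4, the third gene of that locus, had values of 11.23, 10.54 and 10.70 in set 5 and of 11.86, 11.44 and 11.81 in set 6, which did not overlap, and its difference of 0.88 (SE 0.46) was not called (adjusted p = 0.223, 0.00569 with the block). Gata3, which directs Th2 cells, overlapped between the sets at 12.81, 12.43 and 12.50 against 12.58, 12.28 and 12.42 (difference -0.15, adjusted p = 0.421). Of 14 Th9 and growth factor cytokines 3 were higher (2 centred, 8 blocked), and the count was 5 without set 5 replicate 2. Il3, a growth factor of mast cells and other myeloid cells, stood at 3.82, 2.63 and 1.09 in set 5, with replicate 3 at the lowest value, and at 5.94, 6.35 and 6.08 in set 6 (difference 3.61, SE 0.74, adjusted p = 0.00643). Tgfb1 differed by 0.43 (SE 0.10), a call lost without set 5 replicate 3 (adjusted p = 0.0565), and Csf1 by 0.67, a call lost without set 5 replicate 1 or 3 or set 6 replicate 2 or 3. Il9r, the IL9 receptor, stood at 5.21, 3.07 and 2.73 in set 5 and at 7.21, 5.82 and 7.04 in set 6 (difference 3.02, SE 0.71, adjusted p = 0.0136), a call lost without set 5 replicate 3 or set 6 replicate 1 (up to 0.0715). The markers of granulocytes and mast cells, which also express type 2 genes, summed to 67.7 to 116 in set 5 and 78.3 to 109 in set 6. Mcpt4 and Tpsb2 were at the lowest value in every KO library of both sets, and none of the 10 markers was called.

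The Th1 genes differed less. Tbx21, the gene of T-bet, had overlapping values of 9.16, 9.82 and 9.54 in set 5 and 9.22, 9.74 and 9.46 in set 6 (difference -0.03, adjusted p = 0.915). Ifng, the gene of interferon gamma, stood at 14.54, 14.53 and 15.59 in set 5 and at 15.38, 14.78 and 16.25 in set 6. Replicate 3 was the highest in both sets, and the difference of 0.59 (SE 0.32) was not called until replicates were blocked (adjusted p = 0.240, 0.0041 with the block). Of 25 Th1 members 3 were higher and none lower (1 and none centred, 11 and 2 blocked). They were Il12rb1, a subunit of the IL12 receptor (0.68, SE 0.12, adjusted p = 0.00319), and the chemokine genes Ccl5 (1.08, SE 0.29) and Cxcr6 (0.97, SE 0.29), the latter a receptor. The call on Ccl5 was lost without set 5 replicate 2 or 3 or set 6 replicate 1 or 3 (adjusted p up to 0.0915), and that on Cxcr6 without any 1 library. The count of Th1 members was 1 without set 5 replicate 3, set 6 replicate 1 or set 6 replicate 3. Among all genes 9.93% were called higher, 3.87% centred and 21.6% blocked. Of 24 cytotoxic molecules Gzmb, granzyme B, was called, from 17.18, 17.58 and 17.37 to 18.24, 18.57 and 18.24 (difference 0.97, SE 0.26, adjusted p = 0.0272). After centring no cytotoxic gene was called, and with the block 6 were higher and 1 lower. The Gzmb call was lost without set 5 replicate 1 or 3 or set 6 replicate 1 or 2 (up to 0.0976). NK cell markers summed to 270 to 732 in set 5 and 429 to 1422 in set 6. None of the 9 was called on the deposited values and 2 were higher with the block, Ncr1 was at the lowest value in all 3 set 5 libraries, and their part in the cytotoxic values was not tested.

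Receptors for migration and costimulation went both ways. Of 22 chemokine and lipid mediator receptors 5 were higher and 2 lower (3 and 2 centred, 11 and 3 blocked). Besides Ccr6, Ltb4r1, the leukotriene B4 receptor, stood at 10.67, 10.64 and 10.40 in set 5 and at 12.17, 12.09 and 11.93 in set 6 (difference 1.49, SE 0.26, adjusted p = 0.00242). Ccr1 (1.88), Ccr10 (2.30) and Cxcr6 made up the others, each lost in some leave-outs, and the count was 2 without set 5 replicate 1 or 3 and 3 without set 5 replicate 2, set 6 replicate 1 or set 6 replicate 3. The 2 that were lower were Ccr7 and S1pr1, or Ccr7 alone without any 1 library except set 6 replicate 1. Of 22 integrins, selectins and trafficking genes 7 were higher and 3 lower (2 and 3 centred, 11 and 4 blocked). Itgal, the αL chain of LFA-1, differed by 0.35 (SE 0.07, adjusted p = 0.00793), and Itga2 by 1.07 (SE 0.25, adjusted p = 0.0147, lost without set 5 replicate 3 or set 6 replicate 1). Itgae, the αE chain CD103, stood at 9.48, 8.36 and 8.24 in set 5 and at 10.31, 9.81 and 10.10 in set 6. Its call (difference 1.38, adjusted p = 0.0442) was lost without any 1 library except set 5 replicate 1. The number of higher members was 2 without set 5 replicate 3 or set 6 replicate 1 and 3 without set 6 replicate 2.

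In the TNF superfamily 5 of 25 members were higher and 3 lower (4 and 3 centred, 10 and 3 blocked), or 3 higher without set 5 replicate 3 or set 6 replicate 1. Tnfsf11, the gene of RANKL, stood at 6.04, 6.66 and 5.49 in set 5 and at 8.12, 7.95 and 7.59 in set 6 (difference 1.83, SE 0.31, adjusted p = 0.00216). Cd40lg, the helper signal to B cells, differed by 0.95 (SE 0.17), and Tnfrsf4, the gene of OX40, by 0.39 (SE 0.06), while Tnfrsf25, the gene of DR3, differed by -0.80 (SE 0.16). Tnfsf14 (1.11), Tnfsf9 (0.75) and Ltb (-0.64) were called too. The call on Tnfsf14 was lost without set 5 replicate 3 or set 6 replicate 1 (adjusted p up to 0.112). That on Tnfsf9 was lost without any 1 library except set 5 replicate 2 (up to 0.226), and that on Ltb without any 1 library (up to 0.153). Of 23 inhibitory receptor and exhaustion genes 2 were higher (1 higher and 1 lower centred, 9 and 3 blocked). On the deposited values 9.93% of all genes were called higher. Pdcd1, the gene of PD-1, stood at 7.27, 7.02 and 7.15 in set 5 and at 8.51, 8.16 and 8.28 in set 6 (difference 1.17, SE 0.23, adjusted p = 0.00552). Cd200r1 differed by 1.12 (SE 0.30), lost without set 5 replicate 2 or 3 or set 6 replicate 1 or 3 (adjusted p up to 0.0804). The number higher was 1 without set 5 replicate 2, set 5 replicate 3, set 6 replicate 1 or set 6 replicate 3 and 4 without set 6 replicate 2. Tox2, Havcr2, Lag3 and Tigit were not called, with differences of 2.13, 0.68, 0.65 and 0.38.

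Genes of protein folding in the ER were higher in set 6. Of 26 measured members of the unfolded protein response and ER chaperone list 13 were higher and none lower (12 and none centred, 19 and none blocked), with a median of 0.41. Leaving out 1 KO library gave 12 to 14. Hyou1, a large chaperone of the ER, stood at 11.53, 11.68 and 11.42 in set 5 and at 12.47, 12.30 and 12.30 in set 6 (difference 0.81, SE 0.09, adjusted p = 0.000407). Hsp90b1, the ER form of HSP90, stood at 14.46, 14.63 and 14.40 in set 5 and at 15.22, 15.21 and 15.02 in set 6 (difference 0.65, SE 0.09, adjusted p = 0.00069). For both genes the sets were apart by more than the spread within a set. Atf6, which encodes a sensor of unfolded proteins that is itself a transcription factor, differed by 0.75 (SE 0.10), Sdf2l1 by 0.75 (SE 0.11), the disulfide isomerase gene Pdia6 by 0.62 (SE 0.10), Creld2 by 0.57 (SE 0.11) and the lectin chaperone Canx by 0.47 (SE 0.07). Dnajc3, a co-chaperone, moved from 11.18, 11.31 and 11.26 to 11.52, 11.58 and 11.58 (difference 0.31, SE 0.06). Calr was called at 0.29, a call lost without any 1 library except set 6 replicate 2. Hspa5, the gene of the main ER chaperone BiP, differed by 0.21 and Xbp1 by 0.51, and neither was called (adjusted p = 0.065 and 0.0864, 0.00794 and 0.000374 with the block). Among stress genes that lie downstream of the sensor PERK, Ddit3 and Ppp1r15a differed by 0.04 and 0.02. These 2 genes do not stand for that branch as a whole. In the ATF4 list, given below, 9 of 28 members were higher (2 centred, 22 blocked). In WT cells 4 members of the unfolded protein response and ER chaperone list were higher (16 with the block). None of 21 heat shock proteins of the cytosol and mitochondria was called (6 higher with the block, and 4 without set 5 replicate 2).

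ATF6 is known to bind the ER stress element, and promoters of ER chaperone genes were therefore searched for it. The motif was read as CCAAT, any 9 bases and then CCACG, on both strands, in the 250 bases before the start of each gene in RefSeq windows of GRCm38.p6. This is another build than the GRCm39 named by the submitters, and it was used for sequences alone. The motif was in 9 of 22 matched promoters of the list (40.9%) and in 6 of 10 of its genes called higher, beside 17 of 9978 measured genes (0.17%) and 33 of 27025 promoters in all (0.122%). A match is a description of letters. The list was chosen for this search because of its link to the element, so its high share is no test of ATF6. The 4 promoters below belong to called members that hold it, with the motif in capitals. Hsp90b1 (chr10:86705445-86705694, minus strand) holds it at both -212 and -107 from the start, Pdia6 (chr12:17266339-17266588, plus strand) at -98, Creld2 (chr15:88819396-88819645, plus strand) at -126 and Dnajc3 (chr14:118937682-118937931, plus strand) at -105. In Creld2, and at the second site of Hsp90b1, it reads on the other strand.
Hsp90b1: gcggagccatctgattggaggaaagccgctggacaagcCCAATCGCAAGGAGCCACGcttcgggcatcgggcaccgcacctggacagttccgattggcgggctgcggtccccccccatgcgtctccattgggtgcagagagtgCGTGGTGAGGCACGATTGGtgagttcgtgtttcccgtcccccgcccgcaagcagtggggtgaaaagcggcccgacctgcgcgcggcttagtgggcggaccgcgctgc
Pdia6: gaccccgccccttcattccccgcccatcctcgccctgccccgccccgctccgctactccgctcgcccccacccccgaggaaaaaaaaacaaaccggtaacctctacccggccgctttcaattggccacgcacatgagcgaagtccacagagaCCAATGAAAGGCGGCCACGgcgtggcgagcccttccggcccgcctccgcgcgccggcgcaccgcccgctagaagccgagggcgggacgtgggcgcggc
Creld2: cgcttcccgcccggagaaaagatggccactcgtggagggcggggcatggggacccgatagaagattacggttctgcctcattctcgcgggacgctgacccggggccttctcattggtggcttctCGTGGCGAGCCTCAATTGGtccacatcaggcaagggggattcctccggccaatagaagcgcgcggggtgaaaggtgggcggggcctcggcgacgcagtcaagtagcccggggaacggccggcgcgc
Dnajc3: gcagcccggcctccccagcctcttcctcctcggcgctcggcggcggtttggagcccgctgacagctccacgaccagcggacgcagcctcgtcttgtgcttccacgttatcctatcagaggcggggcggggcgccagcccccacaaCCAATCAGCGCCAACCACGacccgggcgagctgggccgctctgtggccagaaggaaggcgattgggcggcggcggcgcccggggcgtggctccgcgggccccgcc

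Enzymes of cholesterol synthesis were also higher in set 6. Of 25 measured members of the cholesterol list 15 were higher and none lower, 4 after centring and 21 with the block (20 with block and centring), and the median was 0.48. All 25 differences were above 0 on the deposited values. Idi1, an isomerase of the isoprenoid steps, stood at 11.32, 11.83 and 11.49 in set 5 and at 12.18, 12.16 and 12.06 in set 6 (difference 0.59, SE 0.12, adjusted p = 0.00537). Set 5 replicate 2 was the highest of its set, below all 3 values of set 6, and Idi1 was called in every leave-out of a KO library. Fdps differed by 0.67 (SE 0.18) and Lss, the cyclase that makes the sterol ring, by 0.87 (SE 0.24), calls lost without set 5 replicate 1 or 3 or set 6 replicate 2, and also without set 6 replicate 1 for Fdps and set 6 replicate 3 for Lss. Mvd, which forms the isoprenoid unit, differed by 0.56 (SE 0.12, lost without set 5 replicate 3, adjusted p = 0.0535). Hmgcs1, a synthase of an early step, differed by 0.48 and was not called (adjusted p = 0.0626, 0.000365 with the block). The count depended on single libraries: it was 2 without set 5 replicate 3, 5 without set 6 replicate 2, 6 without set 5 replicate 1 or set 6 replicate 1, and reached 20 in another leave-out. In WT cells no member was called in either fit, and the median was -0.02. The sterol element (TCAC, any base, CCAC, which shares CCAC with the ER motif) was in 1 of 18 matched promoters of the list (5.56%) and in none of 9 called higher, beside 0.862% of measured genes.

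Fatty acid genes were called in 12 of 27 cases, each higher (7 higher and 1 lower centred, 16 and 1 blocked). The count was 4 without set 5 replicate 3, 5 without set 6 replicate 2 and 7 without set 5 replicate 1 or set 6 replicate 1. Elovl1, an elongase, stood at 11.36, 11.53 and 11.41 in set 5 and at 12.01, 11.97 and 12.06 in set 6 (difference 0.59, SE 0.08, adjusted p = 0.000607). Fabp5, a fatty acid binding protein, differed by 0.81 (SE 0.15, adjusted p = 0.00387). Its relative Fabp4 is on no list and had one of the largest rises, from 4.90, 4.26 and 3.79 to 9.91, 7.55 and 9.76 (difference 4.75, SE 0.88, adjusted p = 0.00363). Acaca and Fasn, the enzymes that start and carry out fatty acid synthesis, differed by 0.58 and 0.53 (adjusted p = 0.0154 for Fasn), calls lost without set 5 replicate 3 or set 6 replicate 2 and, for Fasn, set 5 replicate 1.

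**Figure D3:**
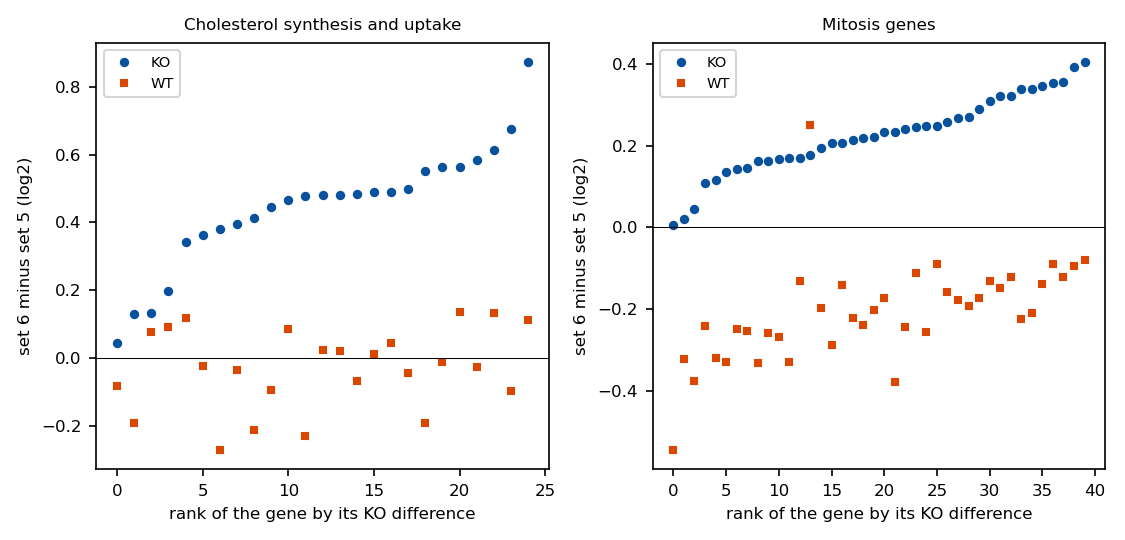
Difference between set 6 and set 5 (log2, vertical axis) for each measured member of the cholesterol list (left) and of the mitosis list (right), ordered along the horizontal axis by rank of the KO difference, in KO cells (circles) and WT cells (squares). The KO medians are 0.48 and 0.23 and the WT medians -0.02 and -0.21.

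Genes of amino acid supply and protein turnover stood slightly higher in set 6. Of 28 members of the ATF4, serine and one-carbon list 9 were higher (2 centred, 22 blocked; 5 without set 5 replicate 1, set 5 replicate 3 or set 6 replicate 1). Phgdh, the first enzyme of serine synthesis, stood at 12.32, 12.46 and 12.33 in set 5 and at 12.85, 12.80 and 12.88 in set 6 (difference 0.47, SE 0.08, adjusted p = 0.00238). Of 26 amino acid and nutrient transporters 8 were higher (6 higher and 1 lower centred, 17 and 1 blocked), Slc15a3 by 1.83 (SE 0.33) and Slc16a6 by 0.40 (SE 0.07). Slc7a5, which carries large neutral amino acids, differed by 0.50 (SE 0.11, adjusted p = 0.0103). Of 20 aminoacyl-tRNA synthetases, which charge tRNAs, 12 were higher (3 centred, 17 blocked), among them Aars by 0.48 (SE 0.08) and Gars by 0.37 (SE 0.07). Their count was 3 without set 5 replicate 3, 5 without set 6 replicate 1, 6 without set 5 replicate 1 and 7 without set 6 replicate 2. Of 31 proteasome subunits 14 were higher (3 centred, 26 blocked), Psmb3 by 0.35 (SE 0.06) and Psma6 by 0.34 (SE 0.07). Without set 5 replicate 3 there were 3, and without set 5 replicate 1, set 6 replicate 1 or set 6 replicate 2 there were 4. Of 40 nuclear genes of oxidative phosphorylation 12 were higher (6 centred, 20 blocked), Cox6a1 by 0.40 (SE 0.06) and Cox5b by 0.29 (SE 0.05). The median differences of these last 3 lists were 0.30, 0.23 and 0.16, close to the shift of all genes in the last case. Of 25 ATF4-list promoters 4 held the ATF4 response motif (TGATG, any base, AA; 16%), and 1 of 7 called higher did, beside 2.03% of measured genes.

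Cell cycle genes differed by small amounts. Of 40 DNA replication genes 8 were higher (none centred, 20 blocked), with a median of 0.21. Dut differed by 0.38 (SE 0.09) and Rfc3 by 0.34 (SE 0.09), both lost without set 5 replicate 3 or set 6 replicate 1. The count was 0 without set 5 replicate 3 or set 6 replicate 1, 2 without set 5 replicate 1 or set 6 replicate 2, 3 without set 6 replicate 3 and 13 without set 5 replicate 2. Of 40 mitosis genes Mad2l1, of the spindle checkpoint, was called at 0.35 (adjusted p = 0.0419; none centred, 18 blocked). That call was lost without any 1 library except set 5 replicate 2, and 2 genes were called without the latter. All 40 mitosis differences were above 0 on the deposited values (median 0.23, or 0.13 centred), while the WT median was -0.21, with 9 lower with the block. Replication-dependent histones, which lack poly(A) tails and whose share reads RNA selection as well as S phase, had a median of 0.47. Of 49 members 4 were called higher (2 centred, 19 higher and 1 lower blocked), and their summed linear level ran from 17860 to 26450 in set 5 and from 25720 to 36600 in set 6. The part of this shift in the cell cycle counts was not tested. Without set 5 replicate 3 or set 6 replicate 2 no histone was called, without set 6 replicate 1 there was 1, without set 5 replicate 1 there were 2, without set 5 replicate 2 there were 7 and without set 6 replicate 3 there were 9. Histone genes are near-identical, so the values of the called H4c6 (1.37), H2bc4 (0.83) and H3c7 (0.70) are uncertain. H1f0 (0.98), the fourth called, is a replacement linker histone that is not tied to replication. Of 13 mitochondrially encoded genes mt-Co3 (0.81), mt-Nd3 (0.58) and mt-Nd1 (0.29) were higher (1 centred, 6 blocked), with a median of 0.17. None was called without set 6 replicate 1, and 1 without set 5 replicate 1 or set 6 replicate 3.

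**Figure D4:**
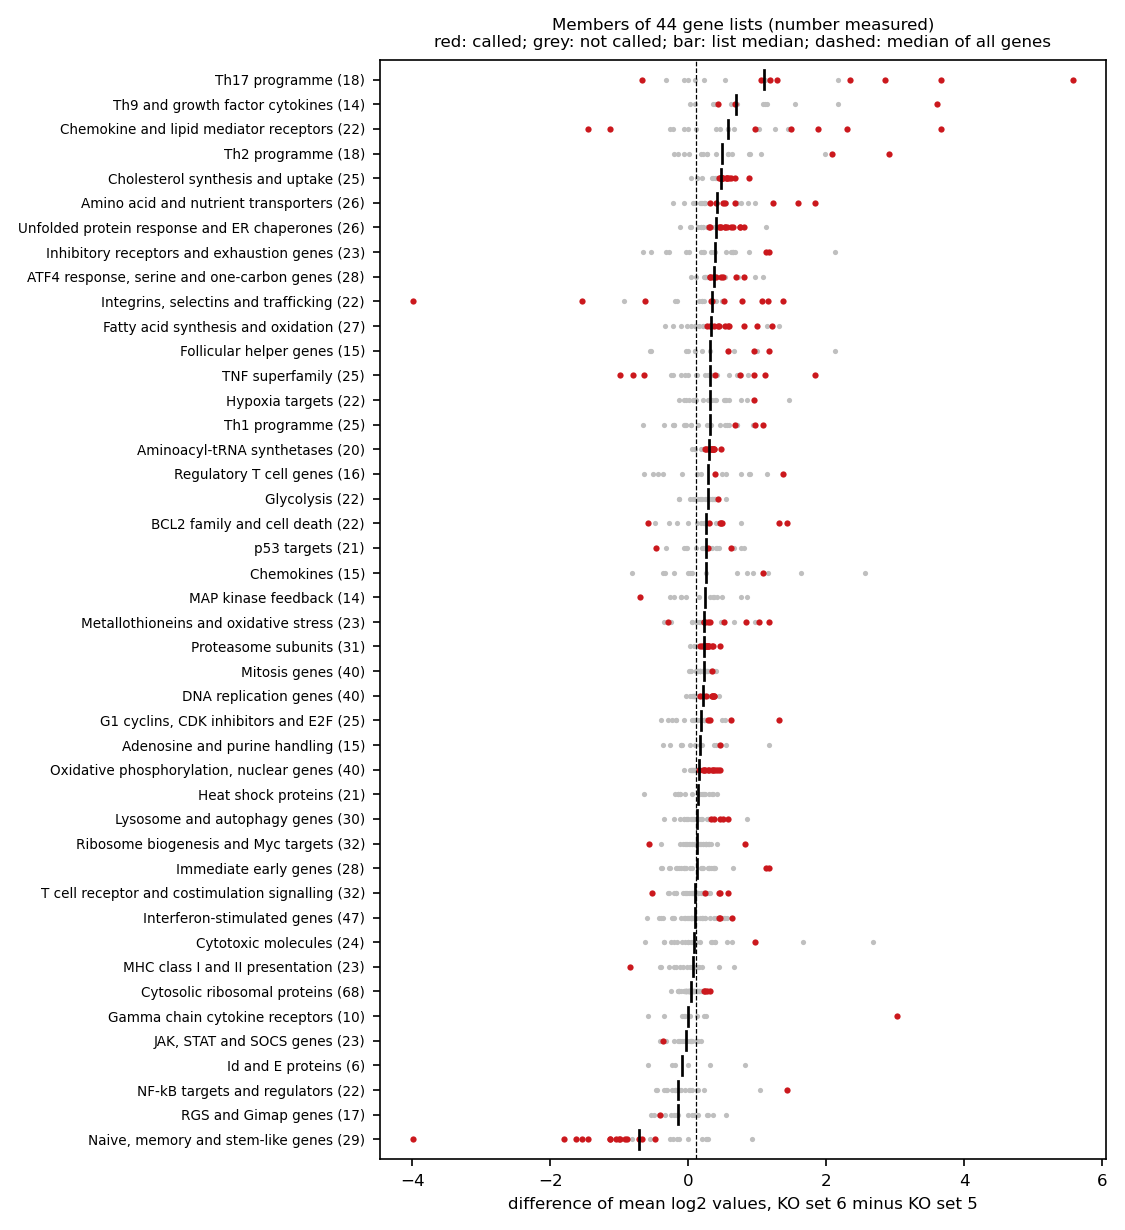
Differences between set 6 and set 5 (log2, horizontal axis) of the measured members of 44 gene lists (rows, with the number measured), called members in red, others in grey, a bar at each list's median and a dashed line at the median of all genes, 0.11. The Th17 list has the highest median (1.10) and the naive, memory and stem-like list the lowest (-0.71).

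Called members of some of the other lists were as follows, and lists not named here also held calls. Of 22 BCL2 family and cell death genes 6 were higher and 1 lower (3 and 1 centred, 11 and 3 blocked). Bak1, a killer protein of the family, differed by 0.47 (SE 0.08), Bcl2a1b, a survival gene of a near-identical cluster and so uncertain, by 1.32 (SE 0.24), and Bcl2l11, the gene of BIM, by -0.58 (SE 0.17). The call on Bcl2l11 was lost without set 5 replicate 1 or 3 or set 6 replicate 1 or 2, and 3 members were higher without set 5 replicate 3, set 6 replicate 1 or set 6 replicate 3. Of 23 genes of metallothioneins and oxidative stress 9 were higher and 1 lower (1 and 1 centred, 14 and 3 blocked), with Hmox1, heme oxygenase, at 0.84 (SE 0.19, lost without set 6 replicate 1). The higher count was 2 without set 6 replicate 1, 3 without set 6 replicate 2, 4 without set 5 replicate 3 and 5 without set 5 replicate 1, and the lower one, Gclc, was lost without each of these. Of 22 NF-kB targets 1 was higher (none centred, 2 higher and 8 lower blocked), Bcl2a1d, which was lost without any 1 library except set 6 replicate 2, while 2 were lower without set 5 replicate 2. Of 17 RGS and Gimap genes Gimap8 was lower at -0.41 (none higher, 3 lower centred, 8 blocked), lost without set 5 replicate 1, set 5 replicate 3 or set 6 replicate 2, while 4 were lower without set 5 replicate 2 and 2 without set 6 replicate 1. Of 32 ribosome biogenesis and Myc target genes Odc1, the first enzyme of polyamine synthesis, was higher by 0.82 (SE 0.11, adjusted p = 0.000648) and the nucleolar gene Nop56 lower at -0.57 (SE 0.10, adjusted p = 0.00216). Without set 5 replicate 2, 4 members of that list were higher. Of 47 interferon-stimulated genes Bst2 (0.46), Ly6a (0.45) and Oas3 (0.63) were higher (1 higher and 1 lower centred, 13 and 6 blocked). Bst2 alone was higher without set 5 replicate 1, set 5 replicate 3, set 6 replicate 2 or set 6 replicate 3. The share of all genes called higher was 9.93%, or 21.6% blocked. Of 68 cytosolic ribosomal protein genes 4 were higher, among them Rps2 (0.32), Rpl15 (0.24) and Rps16 (0.23), while after centring none was higher and 4 were lower (11 higher and 3 lower blocked). The ribosomal count was 10 without set 5 replicate 2 and 1 without set 5 replicate 1, set 5 replicate 3, set 6 replicate 1 or set 6 replicate 2.

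Among the largest rises by the rule, apart from those given above, Hlf, a PAR bZIP transcription factor, stood at 2.81, 1.42 and 3.16 in set 5 and at 5.92, 4.66 and 6.57 in set 6 (difference 3.25, SE 0.58). St6galnac1, a sialyltransferase, stood at 5.91, 5.68 and 5.05 in set 5 and at 9.34, 8.11 and 8.69 in set 6 (difference 3.17, SE 0.46, adjusted p = 0.00105). Replicates 1 and 3 were above replicate 2 in set 6 for both. Grp, gastrin-releasing peptide, was at the lowest value in all 3 set 5 libraries and at 5.69, 5.12 and 7.06 in set 6, and no fold is given. Ifitm6 differed by 2.75 (SE 0.81), lost after centring (adjusted p = 0.0555) and without any 1 library except set 6 replicate 3, and its family of similar genes makes the value uncertain. Among the largest falls were Gprc5b, an orphan receptor, from 7.13, 6.12 and 6.63 to 3.18, 4.29 and 3.46 (difference -2.99, SE 0.39, adjusted p = 0.000619), and Pdlim4, from 9.25, 9.98 and 10.09 to 6.51, 6.71 and 7.25 (difference -2.95, SE 0.30, adjusted p = 0.000161). Cmah, which makes the sialic acid Neu5Gc, differed by -2.13 (SE 0.29) and Sorcs2, a sorting receptor, by -2.02 (SE 0.35), both called in every leave-out. Tcea3 (-2.47), Pou6f1 (-2.04), Ggt5 (-1.80), Srl (-1.77), Cd7 (-1.65) and Tm4sf5 (-2.52) were lower as well. Their calls were lost in some leave-outs, each without set 5 replicate 3, with adjusted p up to 0.0549 for Tcea3, 0.0608 for Pou6f1, 0.119 for Ggt5, 0.18 for Srl, 0.0715 for Cd7 and 0.211 for Tm4sf5, which centring also ended (0.0549). Among the genes with the smallest p that were called in all 3 fits were Rap2a, Hyou1, Cmtm7, Mgat2 and Ssr4 higher and Ccr7, Pdlim4, Klf2 and Kif21b lower. Cmtm7 stood at 12.42, 12.27 and 12.21 in set 5 and at 13.43, 13.22 and 13.15 in set 6. Ssr4, of the complex that brings proteins into the ER, differed by 0.64 (SE 0.08), and Mgat2, a Golgi enzyme that builds N-glycans, by 0.51 (SE 0.06).

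The same contrast in WT cells shares no library with that in KO cells. There 423 genes were called, 378 higher in set 6 (3.01%) and 45 lower (0.359%). The count was 129, 238 and 217 without WT set 5 replicate 1, 2 and 3, and 118 and 113 without WT set 6 replicate 2 and 3. Of the genes called in KO cells 213 were called in WT cells (14.2% of the KO calls and 50.4% of the WT calls), 211 in the same direction. The sign in WT cells was the same for 1329 of the 1501 KO calls (88.5%), beside 65.6% of all genes. Across genes, which are not independent replicates, the differences in KO and WT cells had r = 0.41 and rho = 0.39. Klf2, Pdlim4, Il5, Il13, Tnfsf11, Ltb4r1, Odc1 and Rap2a were among the shared calls, Pdlim4 at -3.24 and Il5 at 3.25 in WT cells. Called in KO and not in WT cells were Ccr7 (-0.55, adjusted p = 0.0574) and Hyou1 (0.32, 0.071), which by itself shows no difference between genotypes.

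The difference of the KO and WT contrasts was called for no gene without the block (lowest adjusted p 0.148 by limma, 1320 genes at an unadjusted p under 0.05). With the replicate number as a block within each genotype, over the 12 libraries of sets 5 and 6, it was called for 509 genes (4.06%), 286 positive and 223 negative, and with the block over all 18 libraries for 11. In the 12-library fit the fall of Ccr7 was larger in KO cells (a difference of -0.91, adjusted p = 0.0102), that of Tcf7 differed by -0.69 (0.0218) and that of Igfbp4 by -1.35 (0.000786). Of the naive, memory and stem-like list 7 members were called, each with a negative difference between the KO and WT contrasts. The rise of Il3 was larger in KO cells (3.66, 0.0395), with 1 KO library of set 5 at the lowest value. Il17a was called as well, but all 3 WT libraries of set 5 were at the lowest value and those of set 6 at 2.17, 2.74 and 2.03. Its difference is therefore no measured fold. The same holds for Fabp4, with 2 WT libraries of set 5 and 1 of set 6 at the lowest value. The counts that follow are of differences between the KO and WT contrasts, and not of KO levels against WT levels. Of 25 cholesterol genes 12 were called, each with a positive difference. So were 14 of 40 mitosis genes, 9 of 49 histones, 8 of 28 ATF4-list genes and 6 of 27 fatty acid genes. The same held for 4 of 20 aminoacyl-tRNA synthetases and 5 of 28 immediate early genes. Negative differences alone were called in 5 of 17 RGS and Gimap genes and 4 of 18 Th2 genes. The same was true of 5 of 32 genes of T cell receptor and costimulation signalling. Of 47 interferon-stimulated genes 4 had a positive and 3 a negative difference, and the remaining lists had at most 3 called in either direction. Hmgcs1 stood at 13.24, 13.02 and 13.12 in WT set 5 and at 13.20, 12.92 and 13.06 in WT set 6, above each KO library, and its contrast differed by 0.55 (adjusted p = 0.0136). The genes that follow were chosen after their values were seen, since the unblocked test called none. Il21, a follicular helper cytokine, rose in WT cells by 3.08 from a mean of 5.74 to 8.82, while the KO libraries overlapped between 11.11 and 12.61, a difference of -2.98 (adjusted p = 0.00914). Serpinf1 rose in WT cells by 3.53 and was not called in KO cells (-2.62, 0.0474), and Csta2, one of several near-identical cystatin genes and so uncertain, had every WT library of set 5 at its lowest value and those of set 6 at 6.18, 6.08 and 6.75, while the KO libraries lay between 9.80 and 12.37. Rsc1a1 ranged from 1.0 to 8.02 within KO set 5.

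**Figure D5:**
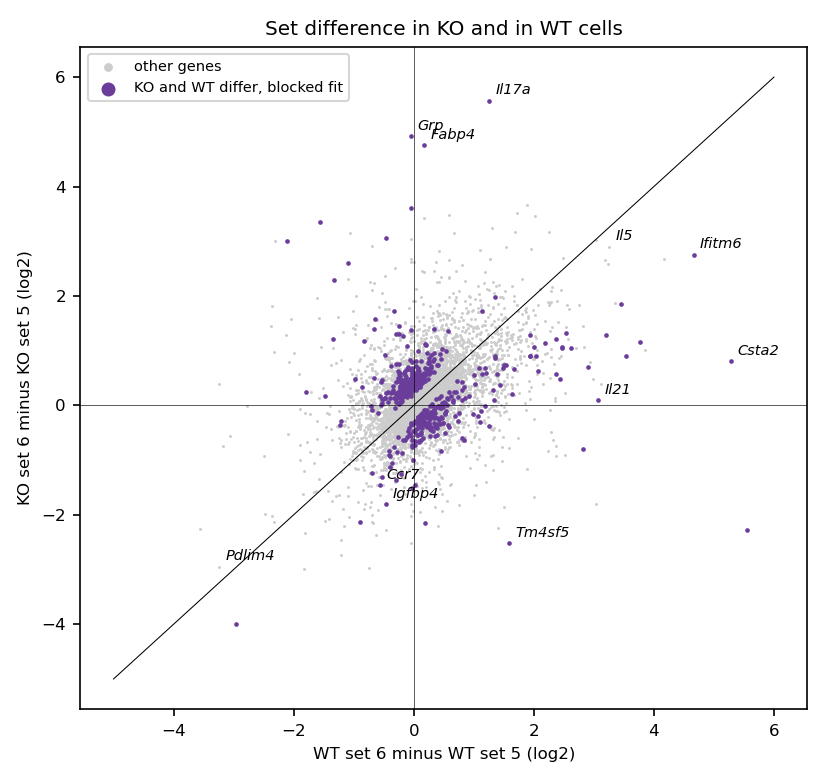
Difference between set 6 and set 5 in KO cells (log2, vertical axis) against that in WT cells (log2, horizontal axis), 1 point a gene, with the line of equal differences and, in purple, the 509 genes whose differences were called unlike in the blocked fit. Pdlim4 lies low in both genotypes, and Il17a and Fabp4 lie high in KO cells, at horizontal positions that rest on WT libraries at the lowest value.

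The authors' deposited table has 76 genes with an adjusted p under 0.05 for this contrast, 58 higher and 18 lower. Testing here for a change beyond 1.2-fold called 75 genes, of which 74 were shared with that table. After median centring the minimum-fold test called 46, 25 higher and 21 lower, and 43 of the 76 genes were among them. The authors' deposited table gives Ccr6 and Pdlim4 an adjusted p of 0.000314, Klf2 and Ccr7 0.000898, Il5 0.00199 and Hyou1 0.0105.

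Markers of further cell types were low and seldom called. Macrophage and monocyte markers summed to 896 to 1309 in set 5 and to 1400 to 1972 in set 6, dendritic cell markers to 1284 to 1553 and 1785 to 2309, and B cell markers to 130 to 167 and 93.7 to 199. None of these 21 marker entries was called in KO cells on the deposited values. With the block 1 macrophage and monocyte marker and 1 dendritic cell marker were higher, and the macrophage gene Lyz2 was at the lowest value in all 3 set 6 libraries. Of 11 erythroid and platelet markers Hbb-bt, a globin gene with a near-identical neighbour, was called. It was at the lowest value in all 3 set 5 libraries and at 4.09, 4.39 and 4.68 in set 6. Single members of the NK and of the γδ and NKT lists (without set 5 replicate 1) and of the dendritic cell list (without set 5 replicate 2) were called higher, and of the granulocyte and mast cell list (without set 5 replicate 1 or 2) and the erythroid list (without set 6 replicate 3) lower. The erythroid list as a whole summed to 1779 to 2636 in set 5 and 1440 to 1985 in set 6.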

How the data were processed

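RNA was measured by poly(A) sequencing in 18 libraries of mouse CD4 T cells, 3 in each of 6 groups. The submitters' processing notes name Salmon 1.9.0, edgeR, limma and the build GRCm39, without roles. The authors deposited log2 expression values, and the sources used here do not describe their normalization. Between 97.1% and 98.4% of sorted values were identical within groups of sets 5 and 6 (tolerance 1e-09), so depth is unknown. The authors' deposited table of comparisons also holds log2 fold changes, a moderated test score and p-values. Gene symbols are those of the deposited tables.

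Group means of all 18 libraries were fitted with limma 3.58.1 in R 4.3.3 (intensity trend, 12 residual degrees of freedom, Benjamini-Hochberg over all genes, threshold 0.05). All 12547 genes passed a filter of 2 or more in 3 or more libraries. SE is the model's standard error. "Centred" values had each library's median subtracted, and "blocked" fits had the replicate number within genotype as a term over the 12 libraries of sets 5 and 6 (4 residual degrees of freedom). The labels give the numbers without saying that they pair libraries. The pairing is taken from the same data as the blocked calls. Same-numbered libraries deviated together (r 0.222 to 0.341 in KO and 0.115 to 0.156 in WT cells), and others did not (at most -0.075 and -0.0343). Deviations from a group mean cancel within the group, so positive same-number values lower the others. The others therefore add no separate support for pairing. The method was tested on simulated data with independent noise in each library. They held no shared replicate effect, no equalization within groups and no shift of all genes in set 6. That test therefore cannot judge the pairing or the share of higher genes.

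Genes named were Id3, Id2, Gata3, Tbx21, Ifng and Il4, the 12 largest rises and falls among called genes without overlap and with a higher group mean of at least 5, the 2 smallest adjusted p in each direction of each list, the 5 smallest p in each direction called in all 3 fits, and the 5 largest differences of differences in each direction. Other members of a list are given beside its count. The comparison and the 55 lists were chosen with earlier results of these data known. Alternatives were other fits, scalings, filters, an added constant and leaving out each library. Summed linear levels add 2 to the power of the deposited value. Some genes that the rule names are not reported here.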

Additional observations from a re-analysis of the deposited data

Results flagged for a closer look

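The contrast between set 6 and set 5 differed between KO and WT cells for 509 genes in a test of the difference itself with the replicate number as a block. Without the block the test called none, and with the block over 18 libraries it called 11. Among the largest rises and falls, the 8 genes below were called in the 12-library blocked test, and their adjusted p in the unblocked limma test lay between 0.213 and 0.567. The difference was positive for Fabp4 (4.57, blocked adjusted p = 0.0325), Il17a (4.32, 0.0323) and Il3 (3.66, 0.0395). It was also positive for Grp (4.96, 0.0232). The values of Il17a, Fabp4 and Grp are no measured folds. All 3 WT libraries of set 5 were at the lowest value for Il17a, 2 of them and 1 of WT set 6 for Fabp4, and for Grp every WT library and the 3 KO libraries of set 5. It was negative for Igfbp4 (-1.35, 0.000786), Cmah (-1.23, 0.0395) and Tm4sf5 (-4.12, 0.0319), whose sets differed in the opposite direction in WT cells (1.59). For Ifitm6 it was -1.91 (0.0419), with a larger rise in WT cells (4.66) than in KO cells (2.75), although 2 WT libraries of set 5 were at the lowest value. For Il3 1 KO library of set 5 was at the lowest value, and for Tm4sf5 1 KO library of set 6. With the block over 18 libraries the adjusted p of these 8 genes ran from 0.0542 to 0.307, so none was called there.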

How the results depend on the processing

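The count of 1501 genes in KO cells became 75 against a minimum fold of 1.2 (46 with centring, an alternative chosen after seeing the data), 264 with a log2 difference of 1 or more, 519 with the 6 libraries alone, 943 with median centring, 931 with quantile normalization and 589 to 1647 when 1 KO library was left out. With the replicate block it was 3476 over 12 libraries, 2459 over the compared libraries alone and 2815 with centring. The WT count of 423 became 87 (64 with centring), 171, 643, 258 and 226 under the same settings, 1239 with library weights and 113 to 385 with 1 WT library left out. With the replicate block it was 1702 over 12 libraries, 740 over 18, 1517 over the compared libraries alone and 1450 with centring. The difference between KO and WT, with 0 calls, gave 509 with the block over 12 libraries, 461 with centring and 11 over 18 libraries, and 0 to 1 with 1 library left out. No value of it exists for a block over the compared libraries alone. Id3 changed sign with library weights (0.18), with 32 added on the linear scale (0.0069) and in leave-outs (-0.75 to 1.23). Il21 changed sign with centring in 3 fits (-0.0054) and in leave-outs (-0.23 to 0.53), and Tbx21 in leave-outs (-0.20 to 0.12). None of these 3 was called. The causes were not tested. Among the other values of named genes 2139 kept their direction and side of the threshold, 521 lost the call and 19 gained it. Of counts over lists 732 moved by more than 1.5 times or went to or from 0, and 1798 did not. The blocked fit changed the calls given beside their results. Depth is unknown, and genes at the lowest value of a library have no measurable fold.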
